A study of Mus musculus with 36 samples.

Results

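The nuclear lamina is the protein mesh under the inner nuclear membrane, and the 10 genes described here encode proteins that build it beside lamin A, hold it to the membrane and the chromatin, or mature its prenylated members. They are *Lmnb1* and *Lmnb2* (the B-type lamins), *Zmpste24* and *Icmt* (processing enzymes), *Emd*, *Lbr*, *Sun1*, *Sun2* and *Tmpo* (membrane partners) and *Banf1* (a chromatin bridge), chosen by name out of 56246 genes in the table. Each name matched 1 gene, and all 10 passed the filter on low values, among 15933 genes tested. RNA was measured in the tibiae of 36 mice aged 6 months, with 12 in each of 3 groups and 6 females and 6 males in each group. Wild-type mice (*Lmna* +/+) carry the label NT, used in the study for non-treated, and no injection is named for them. Saline-treated and ABE-treated mice were *LMNA* G/G, which carry 2 copies of a human *LMNA* transgene with the progeria mutation beside their own *Lmna* genes, and received saline or the editor into the retro-orbital sinus on postnatal day 14. The editor (ABE, an adenine base editor) was split over a pair of viral vectors and directed at the mutant base of the transgene, and it reaches only some of the cells of a tissue. The comparisons ask how progeria bone differed from wild-type bone, and whether treatment with the editor moved expression in that bone. The saline-treated and ABE-treated mice differ in the injected agent, whereas the wild-type mice, described in the study as littermates, differ from both by genotype, by treatment and by a separate series of mouse numbers, and these cannot be told apart.

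Progeria follows from a prelamin A that cannot complete its maturation. Prelamin A and the B-type lamins receive a farnesyl group at their C-terminal end, after which the last residues are clipped off and the new end is methylated by the product of *Icmt*. The protease encoded by *Zmpste24* then cuts prelamin A alone a second time and so releases mature lamin A from its lipid anchor, a step that the splicing defect of progeria removes. B-type lamins keep the anchor and stay at the membrane. The lamin B receptor (*Lbr*), emerin (*Emd*) and the membrane forms of LAP2 (*Tmpo*) tie the lamina to the membrane, and emerin and LAP2 bind the DNA-bridging protein BAF (*Banf1*) through their LEM domains. SUN1 and SUN2 span the inner membrane and couple the lamina to nesprins and the cytoskeleton. The lamina is taken apart and rebuilt at each mitosis.

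Bases before the transcription start are shown for 3 members that were lower in ABE-treated bone and for *Emd*, the member that differed most from wild-type in saline-treated bone. RefSeq promoter windows on GRCm38.p6, which span a start site, were searched for 9 of the 10 members. *Lmnb1* was not among these 9, so the motif counts below leave it out. The 100 bases directly before the start are printed 5′ to 3′ on the strand of the gene. They lie at chr1:181842402-181842501 on the minus strand for *Lbr*, chr10:91171620-91171719 on the minus strand for *Tmpo*, chr10:80918246-80918345 on the minus strand for *Lmnb2* and chrX:74254587-74254686 on the plus strand for *Emd*. Capitals mark CCAAT, a box found in many promoters of genes expressed in dividing cells, and TTTGAA, the core of an element of cell cycle genes, on either strand.
Lbr: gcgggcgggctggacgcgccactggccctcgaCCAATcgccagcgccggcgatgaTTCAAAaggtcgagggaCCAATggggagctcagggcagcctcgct
Tmpo: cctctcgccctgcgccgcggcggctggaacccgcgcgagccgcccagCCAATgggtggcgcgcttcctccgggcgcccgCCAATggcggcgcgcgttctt
Lmnb2: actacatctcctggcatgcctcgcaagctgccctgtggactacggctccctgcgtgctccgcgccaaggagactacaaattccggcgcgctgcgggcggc
Emd: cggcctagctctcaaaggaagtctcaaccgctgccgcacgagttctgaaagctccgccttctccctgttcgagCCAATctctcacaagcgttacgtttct
The *Lbr* sequence holds CCAAT with its first letter 68 and 28 bases before the start and the reverse complement of TTTGAA 45 bases before it. The *Tmpo* sequence holds CCAAT 53 and 21 bases before the start, *Emd* holds 1 CCAAT 27 bases before it, and *Lmnb2* holds neither motif. *Tmpo* and *Lmnb2* have 2 start sites each, of which the first is printed. The second *Tmpo* window holds TTTGAA 28 bases before its start. Over the 13 windows of the 9 members, CCAAT lay in 8 and TTTGAA in 4, beside 37.4% and 17.9% of all 32851 promoter windows. An E2F motif (TTTCCCGC, TTTGGCGC, TTTCGCGC or TTTGCCGC) was searched as well. It lay in 2 of the 13 windows, 1 of *Banf1* and the second of *Tmpo*, beside 2.26% of all. The motifs marked in the printed sequences do not overlap each other, and a match of letters is not evidence of a bound factor.

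The libraries held between 48064068 and 116206662 reads on genes, and the members between 830 (*Lmnb2*) and 45054 (*Lbr*) reads in a library, so that counting error is small beside the spread between mice. Levels are given as scaled TPM, which are the deposited TPM (reads corrected for gene length and library total) rescaled by median ratios to the geometric mean of each gene over libraries. This matters here because very short genes, whose length after correction is about 1 bp, took up 84.7% to 96.6% of the TPM in a library. The ABE-treated female F109436 stood apart, with a scaling factor of 0.217 against a median of 1.05. Without rescaling, the median log2 fold change of all genes was -0.13 in saline-treated against wild-type, -0.42 in ABE-treated against wild-type and -0.27 in ABE-treated against saline-treated mice, beside 0.018, -0.018 and -0.016 with it. Markers of bone cells and of other cells differed between the groups. The summed level of 8 osteocyte markers lay between 12.1 and 52.7 scaled TPM in wild-type, 178 and 509 in saline-treated and 184 and 361 in ABE-treated tibiae, with none of the markers at 0 throughout a group. Epiphyses and marrow had been removed, yet 10 skeletal muscle genes summed to a median of 1011, 2115 and 6277 scaled TPM, and 10 neutrophil genes to a median of 1528, 2604 and 1613, in the same order of groups. The sum of 10 proliferation genes had a median of 118 in wild-type (63.6 to 159), 108 in saline-treated (48.3 to 148) and 70.1 in ABE-treated bone (16.1 to 111), and that of 7 erythroid genes a median of 263 (127 to 362), 283 (103 to 369) and 130 (24.6 to 273).

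The lamina genes formed an upper and a lower tier of expression in tibia. Over the 36 libraries *Sun2* had a mean of 16.3 scaled TPM, *Lbr* 15.9, *Lmnb1* 13.1, *Banf1* 7.77 and *Tmpo* 5.62. *Sun1* followed at 2.90, *Icmt* at 2.75, *Emd* at 2.54, *Zmpste24* at 2.22 and *Lmnb2* at 2.09. TPM are corrected for length, but by 1 length per gene, from 1496 bp for *Banf1* to 10998 bp for *Tmpo*. The levels of different genes can thus be set side by side only roughly. *Sun2* was above *Lbr* in 17 of 36 libraries, but the order depended on the group, with *Sun2* above in 4 of 12 wild-type, 3 of 12 saline-treated and 10 of 12 ABE-treated mice, whereas *Lbr* was above *Lmnb1* in all 36. *Tmpo* was above *Sun1* in 35 of 36. Among the lower tier each gene was above the next in 23 to 29 of 36 libraries, and their levels overlapped. *Lmnb2*, lowest over all libraries, was above *Emd* in 10 of 12 and above *Zmpste24* in 11 of 12 wild-type mice, but above *Emd* in none of the saline-treated or ABE-treated mice. *Lmna*, which encodes the A-type lamins, had a mean of 9.63 ± 1.05 scaled TPM (SD, n = 12) without a transgene, 10.9 ± 1.5 after saline and 11.5 ± 1.98 after ABE (SD, n = 12 each), and passed the test only in ABE-treated against wild-type mice (log2 fold change 0.24, adjusted p = 0.00549). Reads were aligned to the mouse genome alone, and whether reads of the human transgene were counted on *Lmna* was not tested.

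**Figure D1:**
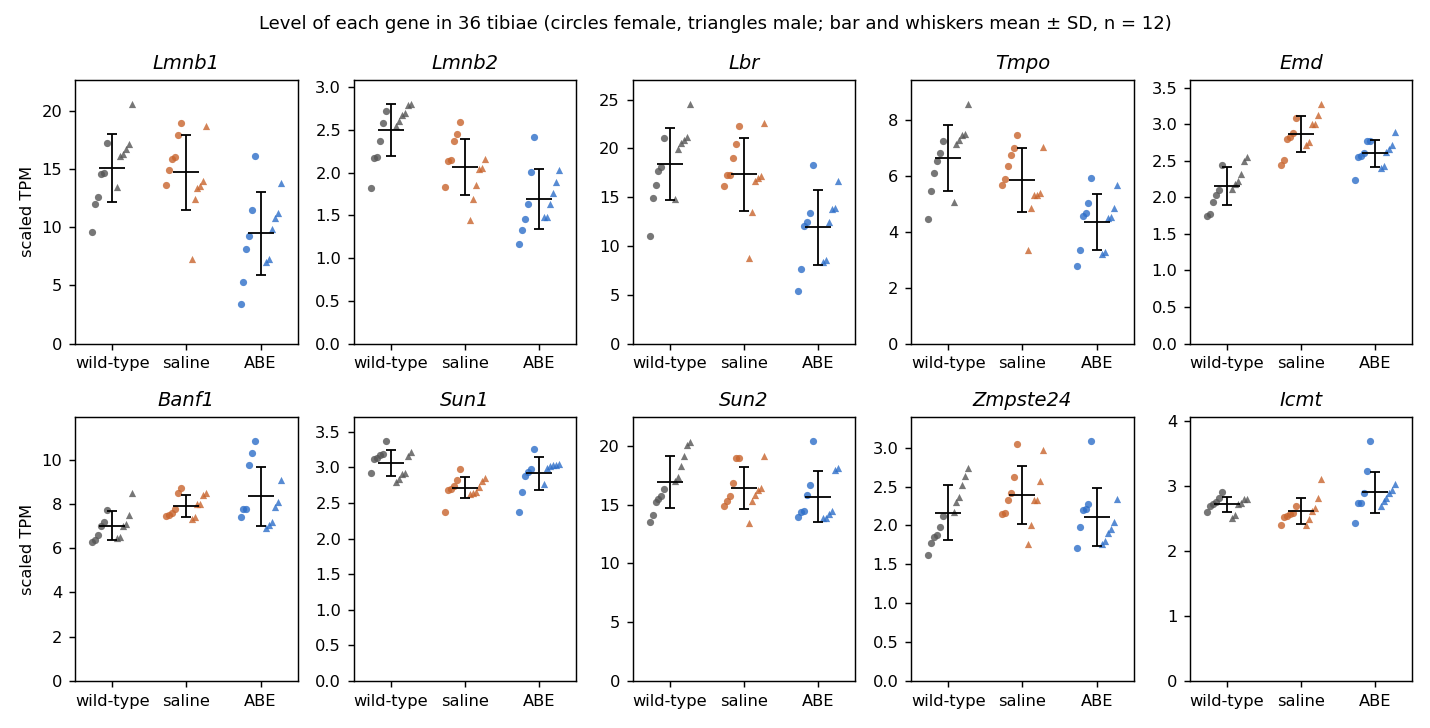
Scaled TPM (y axis, from 0) of each of the 10 genes in every tibia of the 3 groups, with circles for females, triangles for males and bars for the mean ± SD of 12 mice. *Lmnb1*, *Lmnb2*, *Lbr* and *Tmpo* have their lowest means in ABE-treated mice, and *Emd* has its lowest mean in wild-type mice (mean 2.16 scaled TPM).

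In saline-treated *LMNA* G/G bone the gene of emerin was higher and those of lamin B2 and SUN1 lower than in wild-type bone. *Emd* ran from 1.75 to 2.55 scaled TPM in wild-type (median 2.14) and from 2.44 to 3.28 in saline-treated mice (median 2.85). All 12 saline-treated mice were above the wild-type median and 10 of 12 above the highest wild-type mouse. Its log2 fold change was 0.35 ± 0.044 (SE) with an adjusted p of 9.36e-08, on the log2(scaled TPM + 0.5) scale, which understates the change of low genes. In bulk tissue, fewer cells that express a gene and less RNA per cell cannot be told apart. With marker scores as covariates it lay between 0.28 and 0.39 in the 4 fits made and passed the test in each, but it was 0.18 with an adjusted p of 0.296 on TPM as deposited. Marker lists moved in this comparison too, with 7 of 7 osteocyte and 7 of 10 skeletal muscle genes called higher and 8 of 9 B cell genes called lower.

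*Banf1* also rose, from a median of 7.01 scaled TPM in wild-type (6.30 to 8.52) to 7.88 in saline-treated mice (7.30 to 8.72). The groups overlapped, with 1 saline-treated mouse above the highest wild-type mouse and 12 of 12 above the wild-type median. The log2 fold change was 0.17 ± 0.060 (adjusted p = 0.0216), and it was -0.020 on TPM as deposited and -0.031 on TPM rescaled without the very short genes. *Lmnb2* fell from a median of 2.60 (1.83 to 2.81) to 2.09 (1.44 to 2.59), and no saline-treated mouse was above the wild-type median. Its log2 fold change was -0.23 ± 0.079 (adjusted p = 0.0152), but the call was lost with the skeletal muscle score as a covariate (-0.078, adjusted p = 0.337), with neutrophil, B cell and erythroid scores (-0.14, adjusted p = 0.156) and with osteocyte and osteoblast scores (0.19, adjusted p = 0.588). *Banf1* was likewise not called in those 3 fits (0.12, 0.10 and 0.41, adjusted p = 0.130, 0.473 and 0.0667). The last of the 3, chosen after seeing the data, can hardly decide, because the osteocyte score separated wild-type from saline-treated mice without overlap. The SE of *Lmnb2* was 0.21 in that fit. With the proliferation score both stayed called, *Lmnb2* at -0.19 (adjusted p = 0.00316) and *Banf1* at 0.16 (adjusted p = 0.023). *Sun1* fell from 3.13 (2.80 to 3.37) to 2.71 (2.38 to 2.98), with 8 of 12 saline-treated mice below the lowest wild-type mouse and a log2 fold change of -0.15 ± 0.035 (adjusted p = 7.78e-04).

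Thus 2 members were higher and 2 lower in saline-treated bone, 4 of 10, where 52.3% of all genes were called (27.7% higher and 24.6% lower). The members' share is no larger than that of genes at large. *Lmnb1*, *Lbr* and *Tmpo* did not pass the test, with log2 fold changes of -0.045 (95% interval -0.39 to 0.30), -0.091 (-0.41 to 0.23) and -0.17 (-0.41 to 0.066). Neither did the processing enzymes, at 0.12 (-0.039 to 0.28, but -0.048 on TPM as deposited and -0.053 rescaled without the very short genes) for *Zmpste24* and -0.049 (-0.13 to 0.033) for *Icmt*, nor *Sun2* at -0.037 (-0.18 to 0.11). Both enzymes were called with the skeletal muscle score as a covariate (*Zmpste24* 0.25, adjusted p = 0.00267, and *Icmt* -0.13, adjusted p = 6.21e-04) and with the proliferation score (0.15, adjusted p = 0.0384, and -0.070, adjusted p = 0.0222). With neutrophil, B cell and erythroid scores *Lbr* (-0.15, adjusted p = 0.0274), *Sun2* (-0.23, 0.0305) and *Tmpo* (-0.21, 0.0259) were called lower. With the skeletal muscle score they were above 0 and not called (0.20, 0.059 and 0.043). *Tmpo* was also called lower with the proliferation score (-0.093, adjusted p = 0.0312). The intervals given above leave room for changes of the size seen in *Emd* for *Lmnb1*, *Lbr* and *Tmpo* (downward) but not for *Icmt*. No member separated the groups of 12 without overlap, which 6.63% of all genes did.

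In ABE-treated *LMNA* G/G bone against wild-type bone, both B-type lamins, the lamin B receptor and LAP2 were lower and emerin and BAF higher. *Lmnb1* had a median of 15.4 scaled TPM in wild-type (9.61 to 20.6) and 9.52 in ABE-treated mice (3.41 to 16.2), and 6 of 12 ABE-treated mice were below the lowest wild-type mouse. Its log2 fold change was -0.71 ± 0.17 (adjusted p = 4.28e-04). *Lbr* ran from 11.02 to 24.6 in wild-type (median 19.0) and from 5.34 to 18.3 in ABE-treated mice (median 12.4), a log2 fold change of -0.65 ± 0.16 (adjusted p = 5.08e-04). No ABE-treated mouse reached the wild-type median of *Lbr*, of *Tmpo* or of *Lmnb2*.

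*Tmpo* fell from a median of 6.98 (4.45 to 8.58) to 4.55 (2.76 to 5.91), a log2 fold change of -0.56 ± 0.12 (adjusted p = 6.79e-05). *Lmnb2* fell to a median of 1.63 (1.16 to 2.42), with 8 of 12 ABE-treated mice below every wild-type mouse and a log2 fold change of -0.46 ± 0.079 (adjusted p = 5.18e-06). *Emd* rose to a median of 2.62 (2.23 to 2.89), with 12 of 12 mice above the wild-type median and a log2 fold change of 0.23 ± 0.044 (adjusted p = 2.90e-05), which was -0.23 on TPM as deposited. *Banf1* had a median of 7.83 (6.93 to 10.8) and rose by 0.22 ± 0.060 on the log2 scale (adjusted p = 0.00141), which was -0.32 on TPM as deposited.

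The 6 members called, 2 higher and 4 lower, stand beside 70.2% of all genes called (35.0% higher and 35.2% lower), so that again the members were not called more often than other genes. *Zmpste24* at -0.031 (95% interval -0.19 to 0.13), *Icmt* at 0.077 (-0.0050 to 0.16, but -0.40 on TPM as deposited and -0.11 rescaled without the very short genes), *Sun1* at -0.062 (-0.13 to 0.0092) and *Sun2* at -0.10 (-0.25 to 0.038) did not pass the test. No member separated the groups without overlap, beside 8.60% of all genes. Without the library F109436 the same 6 members were called, with -0.60 for *Lmnb1* and -0.56 for *Lbr*. Markers of other cells moved in the same comparison, with 10 of 10 proliferation and 7 of 7 erythroid genes called lower and 10 of 10 skeletal muscle genes called higher. With the skeletal muscle score as a covariate the values were -0.019 for *Lmnb1* (adjusted p = 0.943), -0.034 for *Lbr* (0.893), -0.12 for *Tmpo* (0.484) and -0.15 for *Lmnb2* (0.165), and none of these was called. With the proliferation score they were 0.020, 0.039, -0.076 and -0.20, of which *Lmnb2* alone was called (adjusted p = 0.0132). With neutrophil, B cell and erythroid scores *Lbr* (-0.13, adjusted p = 0.0311), *Tmpo* (-0.19, 0.0181) and *Lmnb2* (-0.25, 0.00344) were called. *Lmnb1* was not called there (-0.059, adjusted p = 0.474). *Emd* was called in each of these fits, at 0.29, 0.26 and 0.18. With osteocyte and osteoblast scores, a choice made after seeing the data, *Emd* was 0.27 (adjusted p = 0.223) and no member was called. That fit can hardly decide, because the osteocyte score separated wild-type from ABE-treated mice without overlap, and only 300 genes were called in it.

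**Figure D2:**
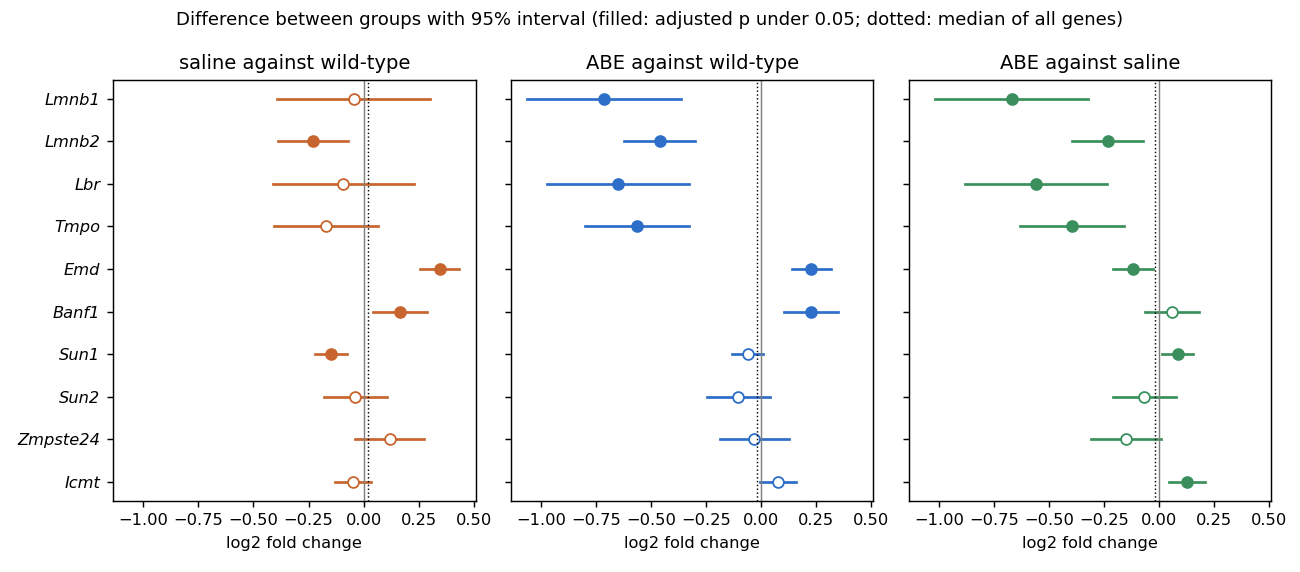
Log2 fold change (x axis) of each gene with its 95% interval in the 3 comparisons, 12 mice a group, with filled points where the adjusted p was under 0.05 and a dotted line at the median of all genes. The values of *Lmnb1*, *Lbr*, *Tmpo* and *Lmnb2* lie furthest to the left in both comparisons of ABE-treated mice. On TPM as deposited *Banf1* changes sign in all 3 comparisons, *Emd* in ABE-treated against wild-type, *Zmpste24* in saline-treated against wild-type, *Sun1* in ABE-treated against saline-treated and *Icmt* in both comparisons of ABE-treated mice, of which *Banf1* and *Zmpste24* in saline-treated against wild-type and *Icmt* in ABE-treated against wild-type also change sign on TPM rescaled without very short genes.

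Between the 2 injected groups, which share genotype and mouse number series, RNAs of both B-type lamins, *Lbr* and *Tmpo* were again lower in ABE-treated bone. *Lmnb1* had a median of 14.4 scaled TPM in saline-treated (7.26 to 18.9) and 9.52 in ABE-treated mice, and 11 of 12 ABE-treated mice were below the saline-treated median. It fell by 0.67 ± 0.17 on the log2 scale (adjusted p = 0.00275). *Lbr* had a saline-treated median of 17.2 (8.77 to 22.6) and fell by 0.56 ± 0.16 (adjusted p = 0.00531), and *Tmpo* had one of 5.78 (3.34 to 7.45) and fell by 0.39 ± 0.12 (adjusted p = 0.00679). For *Lmnb1*, *Lbr* and *Tmpo* alike 4 of 12 ABE-treated mice were below the lowest saline-treated mouse, which was M309451 for all 3 genes. Without that library 10, 8 and 8 of 12 were below the lowest of the 11 left. *Lmnb2* fell by 0.23 ± 0.079 (adjusted p = 0.0164). The level of these genes in ABE-treated mice was thus further from wild-type than that in saline-treated mice.

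*Emd* and *Sun1* had intermediate means in ABE-treated mice. *Emd* fell by 0.12 ± 0.044 against saline-treated mice (adjusted p = 0.0270), from a mean of 2.87 to 2.60 scaled TPM beside 2.16 in wild-type. This *Emd* call was lost with the skeletal muscle score as a covariate (-0.086, adjusted p = 0.237). It was also lost with neutrophil, B cell and erythroid scores (-0.10, 0.208) and with the proliferation score (-0.094, 0.348). With osteocyte and osteoblast scores it stayed (-0.12, 0.0298). *Sun1* was higher than in saline-treated mice by 0.085 ± 0.035 (adjusted p = 0.0456), with a mean of 2.92 beside 2.72 in saline-treated and 3.06 in wild-type mice. This *Sun1* call was lost in 17 of the 36 fits that left out 1 library, was 0.072 with an adjusted p of 0.0925 without F109436, and was -0.22 on TPM as deposited. *Icmt* rose by 0.13 ± 0.040 (adjusted p = 0.0114), from a median of 2.58 (2.40 to 3.11) to 2.86 (2.43 to 3.70), and was -0.18 on TPM as deposited. *Zmpste24* at -0.15 (95% interval -0.31 to 0.0081), *Sun2* at -0.068 (-0.21 to 0.075) and *Banf1* at 0.059 (-0.064 to 0.18, but -0.30 on TPM as deposited) did not pass.

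In all, 7 members were called, 2 higher and 5 lower, where 48.2% of all genes were called (23.1% higher and 25.1% lower). No member separated the groups of 12, and only 0.0314% of all genes did so. Without F109436 there were 6 members called. Marker genes of dividing, marrow and muscle cells also differed in this comparison. All 10 proliferation genes, all 7 erythroid genes and 8 of 10 neutrophil genes were called lower in ABE-treated than in saline-treated bone, with median log2 fold changes of -0.70, -1.05 and -0.77, and 9 of 10 skeletal muscle genes were called higher (median 1.32). Without F109436 these counts were 10, 7, 4 and 6. With the proliferation score, the mean standardized level of its 10 genes, as a covariate, *Lmnb1* had a log2 fold change of -0.051 (adjusted p = 0.649), *Lbr* 0.021 (0.815), *Tmpo* 0.017 (0.868) and *Lmnb2* -0.012 (0.940). No member was called in that fit, where 208 genes were called in all. With neutrophil, B cell and erythroid scores the values were -0.16 for *Lmnb1*, 0.025 for *Lbr* and 0.019 for *Tmpo*, and with the skeletal muscle score -0.31, -0.24 and -0.16, none of them called. With osteocyte and osteoblast scores, a choice made after seeing the data, 7 members were called and *Lmnb1* had -0.72.

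**Figure D3:**
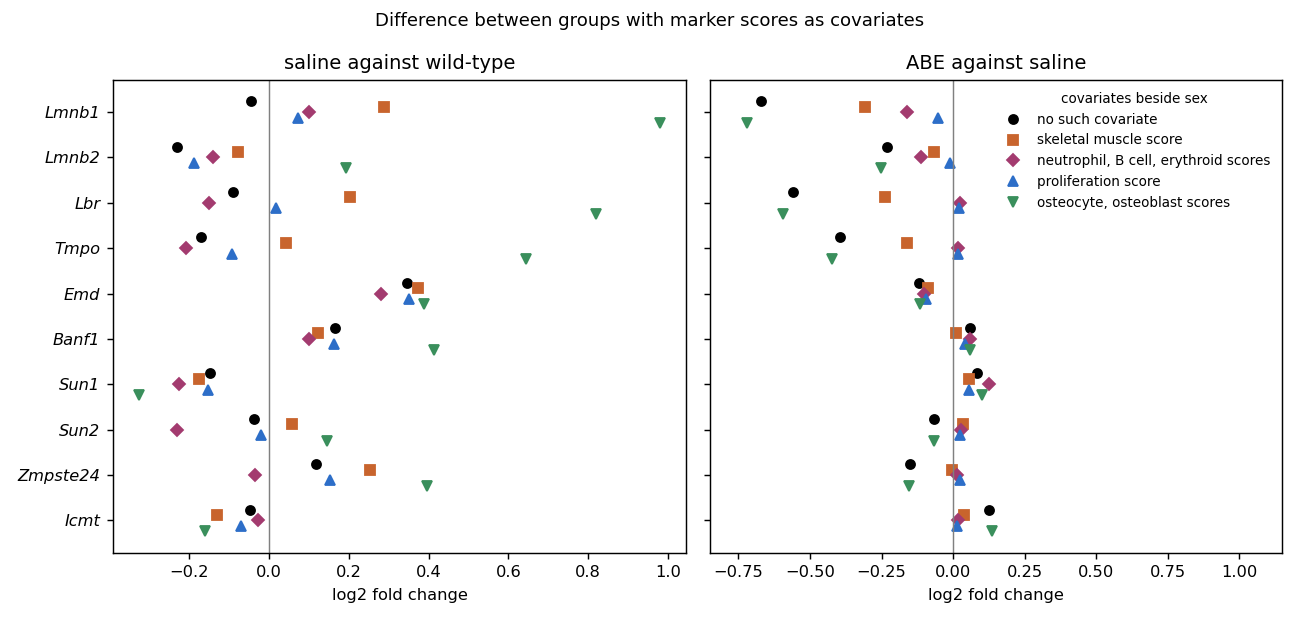
Log2 fold change (x axis) of each gene in saline-treated against wild-type and in ABE-treated against saline-treated mice, from fits with sex alone or with marker scores as further covariates. In the right panel the values of *Lmnb1*, *Lbr*, *Tmpo* and *Lmnb2* move toward 0 with the proliferation score (-0.051, 0.021, 0.017 and -0.012), and in the left panel *Emd* stays between 0.28 and 0.39.

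The levels of the members also followed marker lists among mice of the same group and sex. After the mean of each group and sex was subtracted, Pearson's r of *Lmnb1* with the proliferation score over the 36 libraries was 0.97 and Spearman's rho 0.93. For *Lbr* they were 0.98 and 0.97, and for *Tmpo* 0.96 and 0.96. Each had a permutation p of 1e-05, the smallest that 100000 resamples can give, and an adjusted p of 5.8e-05 for r and 7.9e-05 for rho over the 110 relations of 10 members and 11 lists. Without the 2 libraries farthest from the median score r was 0.95, 0.98 and 0.97. *Lmnb2* followed less closely, with an r of 0.73 (adjusted p = 5.8e-05), a rho of 0.54 (adjusted p = 0.0032) and 0.64 without those libraries. *Lmnb1*, *Lbr* and *Tmpo* also followed the erythroid score (r 0.915, 0.973 and 0.959) and the neutrophil score (r 0.881, 0.881 and 0.805). Each of these r had an adjusted p of 5.8e-05 by the same permutation test. Their relation was thus not particular to the proliferation list. In a bulk library such relations can come from the share of dividing or marrow cells as well as from the level per cell, and which was not tested.

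*Zmpste24* followed the neutrophil score, with an r of 0.84 (adjusted p = 5.8e-05), a rho of 0.88 (adjusted p = 7.9e-05) and 0.80 without the 2 farthest libraries. *Icmt* ran the other way, with an r of -0.79 (adjusted p = 5.8e-05), a rho of -0.58 (adjusted p = 0.0010) and -0.58 without those libraries, and rose with the skeletal muscle score instead (r 0.78 with adjusted p = 5.8e-05, rho 0.82 with adjusted p = 7.9e-05, 0.75 without them). *Emd* showed little relation to proliferation (r 0.17 with adjusted p = 0.43, rho 0.20 with adjusted p = 0.37, 0.13 without the farthest libraries). For *Sun1* the relation to proliferation differed in sign among the groups, with an r of 0.35 among wild-type mice, 0.29 after saline and -0.68 after ABE (12 mice each, not tested). Over all 36, r was -0.27 (adjusted p = 0.17), rho -0.012 (adjusted p = 0.96) and r without the 2 farthest -0.11. For *Banf1* the groups gave 0.53, 0.020 and -0.26, with little relation over all (r -0.054 with adjusted p = 0.81, rho 0.087 with adjusted p = 0.70, 0.21 without them). Both genes ran against scores of bone cells. The largest r of *Sun1* was with the osteoclast score (r -0.695 with adjusted p = 5.8e-05, rho -0.52 with adjusted p = 0.0045). That of *Banf1* was with the osteoblast score (r -0.52 with adjusted p = 0.0033, rho -0.51 with adjusted p = 0.0048).

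**Figure D4:**
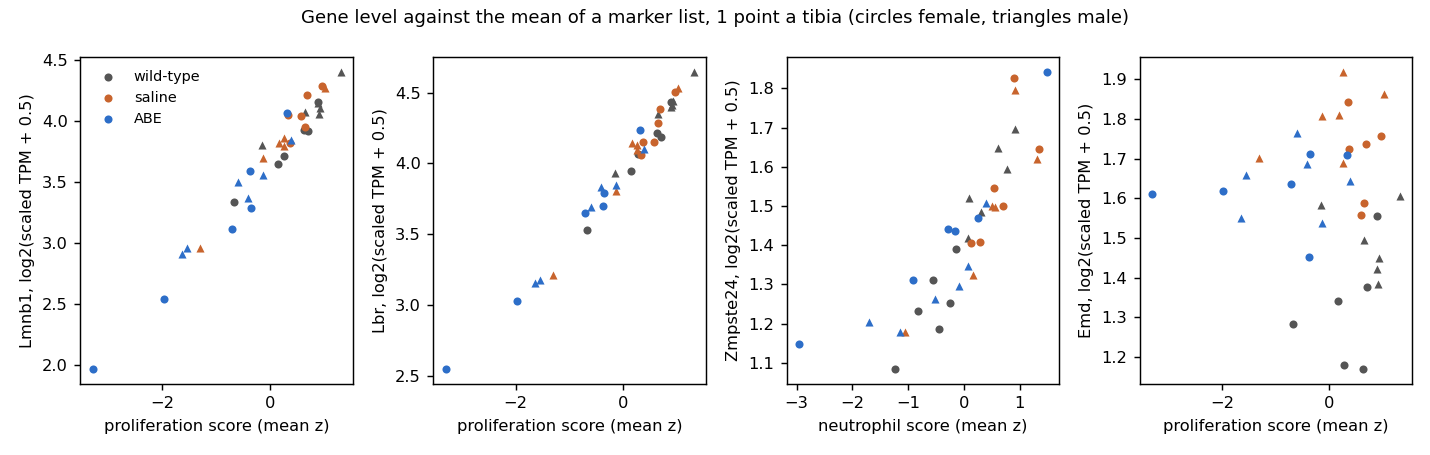
Log2(scaled TPM + 0.5) of a gene (y axis) against the mean standardized level of a marker list (x axis), 1 point for each of 36 tibiae, not centred, coloured by group with circles for females and triangles for males. *Lmnb1* and *Lbr* rise along 1 line with the proliferation score in all groups, *Zmpste24* rises with the neutrophil score, and *Emd* is spread widely, with its lowest values in wild-type mice.

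The genes most like each member, by the same centred correlation over 36 libraries and 8430 genes with a mean of at least 2 scaled TPM, are given as a description. They were *Bub1b* (r 0.99), *Cdc20* (0.98) and *Racgap1* (0.98) for *Lmnb1*, *Prc1* (0.99), *Aurka* (0.99) and *Tpx2* (0.99) for *Lbr*, and *Usp1* (0.98), *Lbr* (0.98) and *Prc1* (0.98) for *Tmpo*. Most of these act in mitosis. *Lmnb2* was nearest to *Myb* (0.91), *Nin* (0.90) and *Vav1* (0.89), and *Zmpste24* to *Cpne3* (0.92), *Plbd1* (0.91) and *Ltf* (0.91), where *Ltf* encodes a granule protein of neutrophils and is on the neutrophil list. *Banf1* was nearest to *Hspe1* (0.93), *Hspd1* (0.91) and *Phb2* (0.91), whose products work in mitochondria. *Emd* was nearest to the X-linked *Uba1* (0.91), *Prpf8* (0.85) and *Snrnp200* (0.84), and *Icmt* to *Rabl6* (0.95), *Cyhr1* (0.94) and *Akt2* (0.94). *Sun1*, with *Pcmtd2* (0.78), *Mettl7a1* (0.78) and *Herc2* (0.77), and *Sun2*, with *Tnfrsf21* (0.85), *1600014C10Rik* (0.84) and *Sorl1* (0.83), had the least close neighbours. Libraries share depth and tissue composition, which enter all of these values.

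In wild-type mice *Zmpste24* lay between 1.62 and 2.12 scaled TPM in females and 2.17 and 2.74 in males, without overlap, and *Sun2* between 13.6 and 16.3 in females and 17.1 and 20.3 in males, again without overlap, which held for 1.96% of all genes. Tested after these values were seen, the male minus female difference in wild-type mice was 0.32 for *Zmpste24* (adjusted p = 0.121) and 0.30 for *Sun2* (adjusted p = 0.113), and no member passed, beside 0.308% of all genes. In saline-treated mice the ranges of the sexes overlapped for both, at 2.15 to 3.05 and 1.76 to 2.97 for *Zmpste24* and 14.9 to 19.0 and 13.5 to 19.1 for *Sun2*. Against wild-type, *Zmpste24* in ABE-treated mice had a log2 fold change of 0.20 in females and -0.26 in males. The difference between the sexes was -0.46 (95% interval -0.73 to -0.19), with an adjusted p of 0.0476 for the interaction, which 3.68% of all genes passed in that comparison. It was the only member of 10 to pass in any comparison.

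In saline-treated against wild-type mice, where 1.03% of all genes passed the interaction, the same difference of *Zmpste24* was -0.39 (adjusted p = 0.0984), that of *Sun2* -0.36 (adjusted p = 0.0969), that of *Lmnb2* -0.41 (adjusted p = 0.109) and that of *Tmpo* -0.54 (adjusted p = 0.147). All 6 saline-treated females were above all 6 wild-type females for *Zmpste24*, beside 14% of all genes that separated these 2 groups of females. All 6 saline-treated males were below all 6 wild-type males for *Lmnb2*, beside 28.4% of all genes that separated these males, and so were all 6 ABE-treated males, beside 39.2%. Between ABE-treated and saline-treated mice no member separated the groups of 6 in females or males, beside 3.08% and 4.96% of all genes. Within females alone *Zmpste24* was called (0.31, adjusted p = 0.0130). *Emd* was called higher within each sex, by 0.38 in females and 0.31 in males (adjusted p = 2.15e-05 and 1.20e-04), with no overlap of 6 and 6 mice in either, as for the shares of all genes just given. In ABE-treated against saline-treated mice, *Lmnb1* had a log2 fold change of -0.96 in females (adjusted p = 0.00434) and -0.38 in males (0.252). The difference of 0.59 (95% interval -0.084 to 1.26) did not pass (adjusted p = 0.369), beside 0.0565% of all genes that did.

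**Figure D5:**
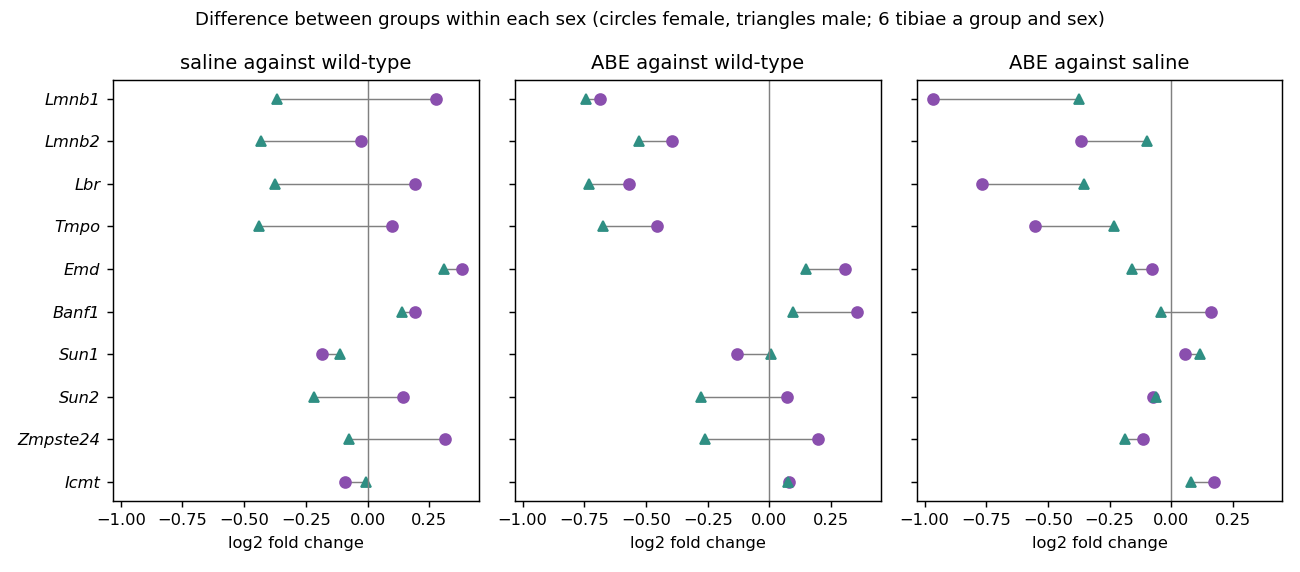
Log2 fold change (x axis) of each gene within females (circles) and within males (triangles), 6 mice a group and sex, in the 3 comparisons. *Zmpste24* lies on opposite sides of 0 in the sexes in ABE-treated against wild-type mice (0.20 and -0.26), and *Emd* lies to the right of 0 in both sexes in both comparisons with wild-type.

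Ratios of 2 members within a library do not depend on how libraries are scaled. The log2 ratio of *Lmnb1* to *Lmnb2* was 2.58 ± 0.21 in wild-type mice, 2.81 ± 0.20 after saline and 2.41 ± 0.37 after ABE (SD, n = 12 each). It was higher by 0.24 in saline-treated than in wild-type mice (permutation test, two-sided, p = 0.0102, adjusted p = 0.0460 over 3 pairs and 3 comparisons) and lower in ABE-treated than in saline-treated mice by a difference of -0.41 (permutation p = 0.00168, adjusted p = 0.0151). With 0.5 added to both levels the first difference was 0.19 and no longer passed (adjusted p = 0.0947), and the second was -0.44 (adjusted p = 0.0110). Within sexes both passed in females only. The first was 0.32 in females (exact permutation test, adjusted p = 0.0195) and 0.15 in males (0.367). The second was -0.55 in females (0.00974) and -0.27 in males (0.210), and the difference between the sexes was not tested. The log2 ratio of *Sun1* to *Sun2* was -2.46 ± 0.23, -2.59 ± 0.17 and -2.42 ± 0.22 (SD, n = 12 each), and no comparison of 12 and 12 mice passed (adjusted p between 0.0990 and 0.708). In females alone the saline-treated minus wild-type difference was -0.36 and passed (exact permutation test, adjusted p = 0.0130), beside 0.095 in males (adjusted p = 0.344), and the difference between the sexes was not tested. That of *Zmpste24* to *Icmt* was -0.35 ± 0.27, -0.14 ± 0.31 and -0.48 ± 0.34 (SD, n = 12 each), with a difference of -0.33 between ABE-treated and saline-treated mice that did not pass (permutation p = 0.0210, adjusted p = 0.0629). Within sexes it passed in saline-treated against wild-type females (0.49, exact permutation test, adjusted p = 0.00974) and in ABE-treated against wild-type males (-0.41, adjusted p = 0.0390).

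Other genes of the same pathways were followed as lists, with counts beside the share of all genes given above. Of 5 prenyl processing genes tested, 2 were higher and 1 lower in saline-treated against wild-type, 3 higher and 2 lower in ABE-treated against wild-type, and 2 higher and 1 lower in ABE-treated against saline-treated mice. *Fnta*, the shared subunit of the enzymes that attach farnesyl and related lipids, was called higher in each, with means of 3.19 scaled TPM in wild-type mice, 3.90 after saline and 4.41 after ABE, but on TPM as deposited its log2 fold change was -0.11 in ABE-treated against wild-type and -0.19 against saline-treated mice. Without F109436 *Fnta* was not called between ABE-treated and saline-treated mice (0.11, adjusted p = 0.110), and none of the 5 genes was called higher there. The counts of this list depended on scaling, with none higher and 0, 4 and 2 lower on TPM as deposited, and 0 and 3, 1 and 3, and 1 and 1 higher and lower on TPM rescaled without the very short genes. Of 10 inner membrane and LEM domain genes, 1 was higher and 4 lower, 2 higher and 5 lower, and 3 higher and 3 lower in the same order of comparisons. *Tor1aip1*, which encodes LAP1, had means of 4.47, 5.54 and 7.33 and was called higher in each, but in none on TPM as deposited (0.093, 0.088 and -0.0060), nor in saline-treated against wild-type mice on TPM rescaled without the very short genes (0.081, adjusted p = 0.339). *Nrm*, which encodes nurim, had means of 4.04, 3.16 and 2.25 and was called lower in each. *Lemd2*, a LEM domain gene, had means of 3.09, 2.56 and 2.86 and was called lower in both comparisons with wild-type and higher in ABE-treated than in saline-treated mice (log2 fold change 0.13, adjusted p = 0.0149), a difference of -0.18 on TPM as deposited.

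All 3 nesprin genes tested were called lower in both groups of *LMNA* G/G mice against wild-type, with medians of -0.30 and -0.38 beside 0.018 and -0.018 for all genes, and none was called between ABE-treated and saline-treated mice. *Syne1*, the highest of them, had means of 7.25, 5.81 and 5.45. Among 7 genes of BAF kinases and chromatin partners, 1 was higher and 1 lower, 1 higher and 6 lower, and 1 higher and 5 lower. *Vrk1*, whose kinase phosphorylates BAF, had means of 3.31, 2.71 and 2.08 and was called lower in each comparison, and *Hdac3*, a histone deacetylase bound by lamina proteins, had means of 2.48, 2.66 and 2.91 and was called higher in each, but was lower in each on TPM as deposited (-0.082, -0.29 and -0.20) and in saline-treated against wild-type mice on TPM rescaled without the very short genes (-0.092). *Cbx5*, which encodes the heterochromatin protein HP1 alpha, had means of 7.69, 6.95 and 5.74 and was called lower in both comparisons of ABE-treated mice.

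Of 12 nuclear pore genes, 2 were higher and 2 lower in saline-treated and 1 higher and 8 lower in ABE-treated against wild-type mice, and 9 were lower and none higher in ABE-treated against saline-treated mice (median -0.17). On TPM as deposited the counts were 0 higher and 1, 12 and 12 lower, and on TPM rescaled without the very short genes 0 higher and 7, 11 and 9 lower. *Nup210* had means of 8.46, 5.65 and 4.36 and *Nup133* of 2.04, 1.81 and 1.58, and both were called lower in each comparison, except *Nup133* in saline-treated against wild-type mice on TPM as deposited (-0.30, adjusted p = 0.0660). Of 8 genes that act on the lamina in mitosis, 2 were higher and 2 lower, 2 higher and 6 lower, and 2 higher and 4 lower. *Lpin1*, a phosphatidate phosphatase, had means of 1.77, 2.89 and 5.41 and was called higher in each, but not in saline-treated against wild-type mice on TPM as deposited (0.36, adjusted p = 0.137) or rescaled (0.34, adjusted p = 0.0941), nor between ABE-treated and saline-treated mice on TPM as deposited (0.43, adjusted p = 0.0538). *Prkca* had means of 3.09, 2.28 and 2.65 and was called lower in both comparisons with wild-type and higher in ABE-treated than in saline-treated mice, where it was -0.12 on TPM as deposited and not called without F109436 (0.15, adjusted p = 0.0584). *Ppp1cc*, a catalytic subunit of protein phosphatase 1 and the most abundant of the list, had means of 8.56, 8.67 and 7.82 and was called lower in both comparisons of ABE-treated mice.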

How the data were processed

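Poly(A) RNA of tibiae was sequenced in stranded, paired-end libraries, which the authors aligned to GRCm38 with STAR and counted on GENCODE genes with QoRTs. The authors deposited TPM per gene and library, and also the GC content of each gene as a fraction and its length. From the values, a gene's TPM are proportional to whole reads over its length after 218 bp are subtracted, so reads were recovered, and 100% of values came out whole within 0.02. Libraries were grouped by their labels, and no pair was identical. The study calls the groups littermates, but no label gives a litter. The tests therefore treat the mice as independent, and shared litters could not be taken into account in the p-values.

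TPM were divided by median ratio factors. Groups were compared with limma (version 3.58.1, R 4.3.3) on log2(scaled TPM + 0.5), with sex as a covariate, all 36 libraries in 1 fit, genes with a mean of at least 0.5 scaled TPM, and Benjamini-Hochberg adjustment over 15933 genes with a threshold of 0.05. The deposited values are TPM, so the test was made on a log scale, and limma-voom on recovered reads was an alternative in place of the study's count model. The difference between sexes was tested as an interaction of group and sex. Ratios and correlations had two-sided permutation tests with 100000 resamples (scipy 1.17.1, numpy 2.4.6, pandas 2.3.3, Python 3.11.15), which were exact for 6 against 6 mice. Figures were drawn with matplotlib 3.10.9, and the tests were tried on simulated data. Alternatives were pseudocounts of 0.1 and 1, other filters, scalings, covariates and samples, and each library left out.

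The members, lists and tests were chosen with earlier results of these data known. Named genes are the members, the genes of each pathway list called in all comparisons or highest in mean, and the 3 genes of closest pattern. Marker lists were fixed with them, and each list's score is the mean standardized level of its tested genes. Beside the lists given above, median log2 fold changes in saline-treated against wild-type, ABE-treated against wild-type and ABE-treated against saline-treated mice were 0.23, 0.40 and 0.11 for osteoblast, 0.76, 0.36 and -0.55 for osteoclast, -0.75, -0.64 and 0.13 for B cell, -0.052, -0.67 and -0.66 for macrophage, 0.19, 0.24 and 0.20 for endothelial and -2.03, -1.16 and 0.87 for cartilage genes. For osteocyte genes they were 1.90, 1.88 and -0.088. Promoter sequences are from RefSeq on GRCm38.p6. The human transgene and the editor were not analysed here.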

Additional observations from a re-analysis of the deposited data

Results flagged for a closer look

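*Zmpste24* is given a closer look because its difference between ABE-treated and wild-type mice differed between the sexes by the interaction test. The male minus female difference of the log2 fold change was -0.459 (95% interval -0.732 to -0.187, adjusted p = 0.0476), with means of 1.87 and 2.46 scaled TPM in wild-type females and males and of 2.25 and 1.97 in ABE-treated females and males. Of the 6 ABE-treated males, the highest had 2.34 scaled TPM and the lowest wild-type male 2.17. The neutrophil score, with which *Zmpste24* correlated, was not a covariate in this interaction, and its part was not tested.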

How the results depend on the processing

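Counts of calls and log2 fold changes were recomputed under 19 or 20 alternatives and with each of 36 libraries left out, and the ratios under 3 alternatives. Correlations and differences between sexes were not recomputed in this way. *Emd* in saline-treated against wild-type mice passed in 18 of 19 alternatives (0.17 to 0.41) and in all 36 fits without a library (0.33 to 0.36), and could not be tested under the study's filter on reads. Leaving out a library gave 4 to 4 members called in saline-treated against wild-type, 6 to 8 in ABE-treated against wild-type and 5 to 8 in ABE-treated against saline-treated mice. It moved *Lmnb1* in saline-treated against wild-type mice between -0.097 and 0.047, above 0 only without the saline-treated male M309451. The *Emd* call in ABE-treated against saline-treated mice was lost in 4 of these fits. No paired analysis was possible because mice of different groups share no number.

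In the following, the comparisons are saline-treated against wild-type as the first, ABE-treated against wild-type as the second and ABE-treated against saline-treated as the third, gene values are log2 fold changes, and the causes were not tested. Genes called numbered 13169 in the first and 19139 in the second with no filter, and 4462, 5900 and 4150 in the 3 comparisons with a mean of at least 2 scaled TPM. With limma-voom on recovered reads under the study's filter, an alternative chosen after seeing the data, they were 3996, 5385 and 4132. On TPM as deposited 4742 genes and 2 members were called in the first, where *Zmpste24* was -0.048 and *Banf1* -0.0196. The second then had *Icmt* at -0.401, *Emd* at -0.232 and *Banf1* at -0.318, and in the third *Icmt* was at -0.183, *Sun1* at -0.22 and *Banf1* at -0.299. The calls on TPM as deposited were 1038 higher and 3704 lower, 1470 and 9458, and 531 and 6574 in the 3 comparisons. On TPM rescaled without very short genes *Zmpste24* was -0.0533 and *Banf1* -0.0313 in the first and *Icmt* -0.113 in the second, and calls split 1799 and 6037, 3407 and 6903, and 3387 and 3358. Array weights gave 7 members called in the first. With the trend over length and GC content removed 1 member was called in the first and 4 in the third, with *Icmt* at 0.0405 and *Sun2* at 0.0526 in the first and *Sun1* at 0.0098 in the second.

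In males alone *Zmpste24* was -0.0746 in the first, *Sun1* 0.0048 in the second and *Banf1* -0.0432 in the third, where 3214 genes and 2 members were called. The log2 ratio of *Lmnb1* to *Lmnb2* was then 0.152 in the first and -0.268 in the third, that of *Sun1* to *Sun2* 0.0953 in the first, and that of *Zmpste24* to *Icmt* -0.0852 in the first and -0.408 in the second. In females alone 3280 genes were called in the first, with *Lmnb1* at 0.276, *Lbr* at 0.194, *Sun2* at 0.145 and *Tmpo* at 0.0988, and 4740 genes and 4 members in the third. *Zmpste24* was 0.199 and *Sun2* 0.07 in the second. The ratio of *Sun1* to *Sun2* was -0.365 in the first and -0.224 in the second, and that of *Zmpste24* to *Icmt* 0.494 and 0.152. With 0.5 added, the ratio of *Lmnb1* to *Lmnb2* was 0.185 in the first.

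With the skeletal muscle score as a covariate *Lmnb1* was 0.288, *Lbr* 0.204, *Sun2* 0.0587 and *Tmpo* 0.0434 in the first. In the second 5415 genes and 3 members were called, with *Zmpste24* at 0.25, *Icmt* at -0.0934 and *Sun2* at 0.0948, and in the third 1339 genes and 0 members, with *Sun2* at 0.0361. With neutrophil, B cell and erythroid scores 5367, 7284 and 1408 genes were called in order, and 1 member in the third. *Lmnb1* was 0.101 and *Zmpste24* -0.0352 in the first, *Icmt* -0.0115 in the second, and *Zmpste24* 0.0133, *Lbr* 0.0253, *Sun2* 0.0263 and *Tmpo* 0.0188 in the third. With the proliferation score 7 members were called in the first, 3 in the second and 0 in the third, where 208 genes were called. *Lmnb1* was 0.072 and *Lbr* 0.018 in the first. In the second *Lmnb1* was 0.0205, *Zmpste24* 0.177, *Icmt* -0.0567, *Lbr* 0.0386 and *Sun2* 0.0047, and in the third *Zmpste24* was 0.0251, *Lbr* 0.0206, *Sun2* 0.0241 and *Tmpo* 0.0174. With osteocyte and osteoblast scores, which separate wild-type from the other groups, 1576 genes and 2 members were called in the first and 300 genes and 0 members in the second. *Lmnb1* was 0.98, *Lmnb2* 0.194, *Lbr* 0.819, *Sun2* 0.144 and *Tmpo* 0.643 in the first, and *Lmnb1* 0.259, *Zmpste24* 0.241, *Icmt* -0.0274, *Lbr* 0.226, *Sun2* 0.0793 and *Tmpo* 0.222 in the second.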
